A study of Mus musculus with 7 samples.

Results

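The genes described are 10 imprinted genes, chosen by their symbols from the 32531 gene rows of the count files: Airn, H19, Cdkn1c, Grb10, Dlk1, Mest, Peg3, Plagl1, Ndn and Snrpn. Each of the 10 had a row, and each passed the low-count filter. The RNA came from the midbrain of untreated adult control mice of the Stard8-TRAP line ES2342, and all 7 libraries carry the same transgene, the ribosomal protein Rpl10a fused to EGFP under regulatory sequence of Stard8. Antibodies against EGFP pull tagged polysomes out of a homogenate. The 3 IP libraries (replicates 1, 2 and 4) hold the immunopurified RNA, and the 4 unbound libraries (replicates 1 to 4) hold the RNA that stayed behind. The sources used here give neither ages, sexes and strain nor whether animals were pooled, so the p-values measure the spread between these libraries, which may be technical. The labels describe the purification of RNA from the IPs and give no separate procedure for the unbound RNA.

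An imprinted gene is transcribed mainly from the copy inherited from one parent. The parental copies differ in DNA methylation laid down in the egg or the sperm, often at a control region that serves a whole cluster. Several clusters are silenced in cis by a long noncoding RNA. Many imprinted genes restrain or promote growth before birth, and in adult brain a number of them, such as Ndn and Peg3, are known for expression in neurons. The counts do not separate the parental copies, so nothing below says which copy the RNA came from.

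Counts in genes ran from 52052340 to 76114634 per library, and 3 counts correspond to between 0.0376 and 0.059 CPM (the usual depth-scaled count, with library sizes corrected by TMM). Of the 17654 genes tested, 39.4% passed an adjusted p of 0.05 in edgeR's quasi-likelihood test, 20.5% as higher and 18.9% as lower in IP. Stard8 itself had 227 to 440 CPM in IP and 3.51 to 4.89 CPM in unbound. The series title speaks of neurons, and the marker lists went the other way. The 12 pan-neuronal markers summed to between 3694 and 8139 CPM in IP against 14090 to 21890 in unbound, and all 12 were lower. The 12 endothelial markers summed to 1919 to 2468 CPM against 15.6 to 22.1, the 12 pericyte and smooth muscle markers to 3312 to 4701 against 26.2 to 46.2, and the 12 microglia and macrophage markers to 1459 to 1530 against 46.3 to 82.3, each list with 12 of 12 higher. Of 10 astrocyte markers 6 were higher, of 10 fibroblast markers 6 were higher, and of 10 oligodendrocyte markers 9 were lower. No marker of these lists was at 0 throughout either group. The part of these cell types in the results below was not tested. In such bulk libraries, fewer cells of a type, less RNA per cell and less of an RNA on tagged polysomes cannot be told apart. This holds for the noncoding RNAs below as well.

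Of the 10 imprinted genes, 2 rose in IP (Cdkn1c and Airn), 3 fell (Ndn, Snrpn and Peg3) and 5 did not pass the threshold. The 20% higher stands beside a background of 20.5%, the 30% lower beside 18.9%, and the 50% called in either direction beside 39.4%, and nothing is read from these shares of 10 genes beyond that comparison. Their median log2 fold change was -0.81, against -0.10 over all genes tested. The 7 genes known as paternally expressed (Airn, Peg3, Plagl1, Dlk1, Ndn, Snrpn and Mest) included both directions. So did the 31 tested genes in the members' domains, maternally expressed ones included. The domain of Plagl1 had no tested gene beside Plagl1 itself. IP 4 stood apart from the other IP libraries. It was the IP library nearest to the unbound mean in 10 of the 10 genes. The share over all genes tested was not computed, so this is not read as a trait of these 10. The pan-neuronal sum of IP 4 was 8139 CPM, against 3694 in IP 1 and 4024 in IP 2. With IP 4 left out, 8 of the 10 genes passed, 2 higher and 6 lower, while the share called over all genes was 35.5% (18% higher, 17.5% lower). As IP 4 lay nearest to the unbound mean, leaving it out enlarges these differences by construction and is no separate support. The number of the 10 genes that passed was 3 without IP 1, without IP 2 or without unbound 4, where 26.4%, 24.7% and 34.8% of all genes passed.

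**Figure D1:**
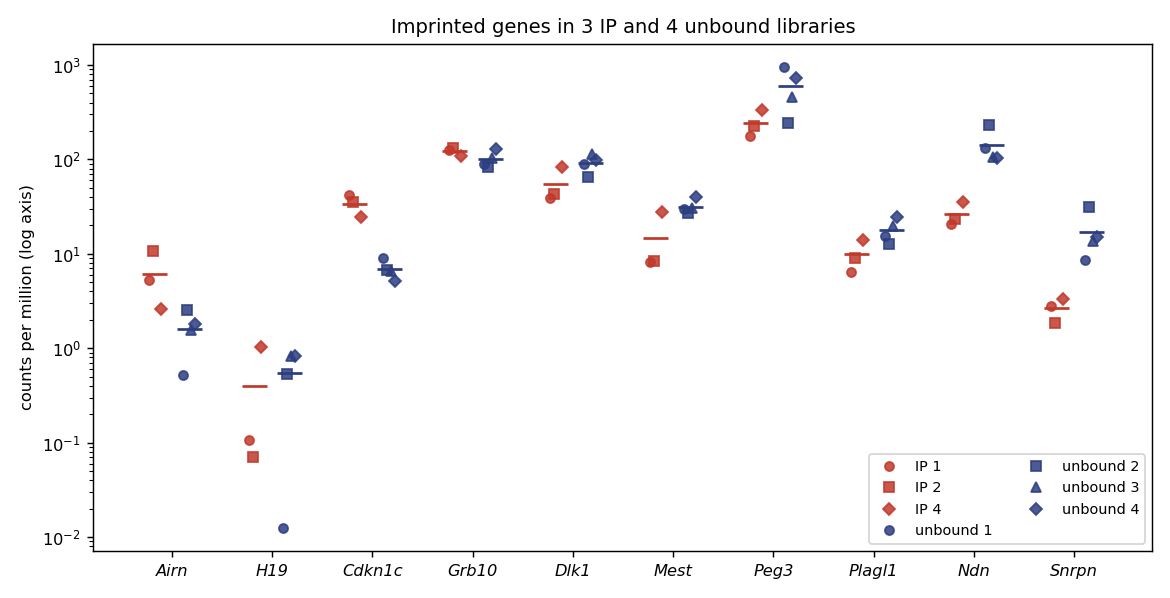
Level of each imprinted gene in CPM on a log axis, with 1 point per library (3 IP in red, 4 unbound in blue) and a bar at each group's mean. Cdkn1c and Airn lie higher in IP, Ndn and Snrpn lie lower in IP without overlap, and H19 spreads from 0.0125 to 1.02 CPM.

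The start regions of members that passed the threshold are shown because the silent copy of an imprinted gene often carries DNA methylation there, which these libraries do not measure. RefSeq on GRCm38.p6 holds windows of 300 bases, 250 before and 50 after a start, for 8 of the 10 genes, and Cdkn1c and H19 have no entry. The windows below run 5′ to 3′ on the gene's own strand, and the capitals mark CpG dinucleotides, the substrate of DNA methylation. They lie at chr17:12741061-12741360 (plus strand, Airn), chr7:6730370-6730669 (minus strand, Peg3), chr7:62348027-62348326 (plus strand, Ndn) and chr7:60005150-60005449 (minus strand, Snrpn, the start with the most CpG of the 4 listed).
Airn: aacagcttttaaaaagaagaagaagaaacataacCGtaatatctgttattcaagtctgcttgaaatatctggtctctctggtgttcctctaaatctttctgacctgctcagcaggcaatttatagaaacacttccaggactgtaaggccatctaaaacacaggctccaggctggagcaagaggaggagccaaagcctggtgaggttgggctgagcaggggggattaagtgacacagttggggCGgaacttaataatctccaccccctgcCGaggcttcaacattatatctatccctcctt
Peg3: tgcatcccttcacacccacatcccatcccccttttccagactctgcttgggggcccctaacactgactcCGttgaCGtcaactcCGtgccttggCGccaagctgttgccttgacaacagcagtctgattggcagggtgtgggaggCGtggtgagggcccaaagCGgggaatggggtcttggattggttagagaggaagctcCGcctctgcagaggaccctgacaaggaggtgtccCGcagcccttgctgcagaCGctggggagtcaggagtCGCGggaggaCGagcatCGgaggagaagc
Ndn: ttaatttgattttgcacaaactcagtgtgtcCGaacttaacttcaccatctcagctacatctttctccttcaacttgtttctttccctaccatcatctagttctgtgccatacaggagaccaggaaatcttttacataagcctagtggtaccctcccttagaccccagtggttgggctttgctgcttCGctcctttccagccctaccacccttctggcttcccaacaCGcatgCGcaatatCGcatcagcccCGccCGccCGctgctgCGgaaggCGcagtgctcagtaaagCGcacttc
Snrpn: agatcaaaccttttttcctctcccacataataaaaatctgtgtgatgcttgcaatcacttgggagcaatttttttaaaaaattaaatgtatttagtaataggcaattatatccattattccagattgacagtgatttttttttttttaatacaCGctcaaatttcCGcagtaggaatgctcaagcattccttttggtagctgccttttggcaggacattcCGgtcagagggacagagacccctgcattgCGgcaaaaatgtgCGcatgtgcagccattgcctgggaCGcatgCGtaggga
The Peg3 window holds 13 CpG, a number that 37.9% of all 32851 windows reach, and the Ndn window holds 11, which 41.4% reach. The Snrpn window holds 7, equal to the median of all windows, and the Airn window holds 3. The densest window of the members belongs to Grb10, with 45 CpG, which 1.93% of windows reach. The hexamer TGCCGC, which the imprint-protecting zinc finger protein ZFP57 recognises when methylated, was searched on both strands. It was found in windows of 4 of the 8 genes (Mest, Snrpn, Plagl1 and Grb10). Of all windows, 11.6% hold it, a share of windows and not of genes, so the 4 of 8 is not set against it. The 8 genes have 14 windows, 5 of them with the hexamer, and 2 of those 5 are Mest windows that start 3 bases apart and hold the same matches, so the count of windows is not set against that share. A match of these letters is a description of the window and not a bound site.

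Cdkn1c encodes p57, an inhibitor of cyclin-dependent kinases that is expressed from the maternal copy and holds cells out of the cell cycle. Its level was 41.5, 35.0 and 24.6 CPM in IP 1, 2 and 4, and 9.02, 6.75, 6.59 and 5.15 CPM in unbound 1 to 4. Each IP library lay above each unbound library, as in 25.1% of all genes tested. The means were 33.7 ± 8.54 (SD, n = 3) and 6.88 ± 1.60 (SD, n = 4), a log2 fold change of 2.29 ± 0.29 (SE, adjusted p = 0.000145, 95% interval 1.66 to 2.92). Within the libraries of index sequence ACAGTG (IP 1 and 2, unbound 1 and 2) the value was 2.28, and within GTGAAA (IP 4, unbound 3 and 4) it was 2.09. IP 4 is the only IP library of GTGAAA, so values within that index rest on it and are given without a p-value. Cdkn1c lies on chromosome 7 from 143458339 to 143461050 (GRCm38, minus strand). In GENCODE M21, 30.7% of its exon bases are shared with an unnamed gene model on the opposite strand, and the strand setting of the counting is not given in the sources used here.

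Airn is the long noncoding RNA that runs antisense through Igf2r from the paternal copy and silences its cluster in cis (chromosome 17, 12741311 to 12860136, plus strand). Its start lies inside Igf2r, and no exon bases of Airn are shared with that gene in GENCODE M21. It measured 5.31, 10.6 and 2.57 CPM in IP 1, 2 and 4, and 0.526, 2.54, 1.56 and 1.82 CPM in unbound 1 to 4. The groups did not overlap, but IP 4 and unbound 2 were nearly level. The log2 fold change was 1.94 ± 0.61 (SE, adjusted p = 0.0268, 95% interval 0.60 to 3.28), from 131 to 610 counts in IP and 42 to 148 in unbound. The call was lost without IP 1 (adjusted p = 0.0555), IP 2 (0.19), unbound 3 (0.0592) or unbound 4 (0.0529), and with the index sequence in the fit (0.063). Within ACAGTG the log2 fold change was 2.38 (adjusted p = 0.102), and within GTGAAA it was 0.63. The value did not pass within ACAGTG. It was larger than over all libraries within ACAGTG and smaller within GTGAAA.

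H19, a long noncoding RNA of the maternal copy and the host of a microRNA, had the lowest mean level per kilobase of exon of the 10 genes in both groups. It had 8, 4 and 52 counts in IP 1, 2 and 4, and 1, 31, 44 and 47 counts in unbound 1 to 4, equal to 0.107, 0.0697 and 1.02 CPM and to 0.0125, 0.533, 0.835 and 0.83 CPM. The 3 libraries of index GTGAAA were the 3 highest of the 7, and IP 4 was above each unbound library. The single count in unbound 1 is under the floor of 3 counts. Its log2 fold change of -0.47 ± 1.27 had a 95% interval from -3.28 to 2.34 (adjusted p = 0.796), so neither a several-fold rise nor a several-fold fall can be told from no change at this depth.

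Grb10 encodes an adaptor protein that dampens signalling from the insulin and IGF1 receptors. It is known for maternal expression in most tissues and paternal expression in neurons. Its level was 127, 132 and 108 CPM in IP 1, 2 and 4, and 89.0, 83.7, 103 and 128 CPM in unbound 1 to 4. IP 4 fell inside the unbound range, and unbound 4 inside the IP range. A log2 fold change of 0.28 ± 0.23 (SE, adjusted p = 0.352) had a 95% interval from -0.22 to 0.77. Within ACAGTG it was 0.59 and within GTGAAA -0.08.

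Dlk1 encodes a membrane protein with EGF-like repeats that is related to Notch ligands and is expressed from the paternal copy. Its level was 38.6, 42.9 and 82.4 CPM in IP 1, 2 and 4, and 89.6, 65, 114 and 99.6 CPM in unbound 1 to 4. IP 1 and IP 2 lay below each unbound library, and IP 4 lay above unbound 2. At -0.75 ± 0.31 (SE), the log2 fold change did not pass (adjusted p = 0.0783). It was -1.17 without IP 4 (adjusted p = 0.012) and -0.89 without unbound 2 (adjusted p = 0.0314). Unbound 2 was the lowest unbound library for Dlk1, so leaving it out also enlarges the fall by construction. Within ACAGTG the log2 fold change was -0.92, and within GTGAAA -0.35.

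Mest, a paternally expressed gene for an enzyme of the alpha/beta hydrolase fold, showed the widest gap between IP 4 and the other IP libraries among the coding members. Its level was 8.19, 8.49 and 27.7 CPM in IP 1, 2 and 4, and 29.7, 27.0, 30.3 and 39.6 CPM in unbound 1 to 4. IP 4 reached 87.5% of the unbound mean, while IP 1 and IP 2 reached 25.9% and 26.8%. The log2 fold change was -1.10 ± 0.42 (SE, adjusted p = 0.0598), and -1.92 without IP 4 (adjusted p = 0.000978). Within ACAGTG it was -1.77 (adjusted p = 0.0165), and within GTGAAA, where IP 4 is the only IP library, it was -0.32. In GENCODE M21, 23.1% of the exon bases of Mest are shared with Copg2 on the opposite strand.

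**Figure D2:**
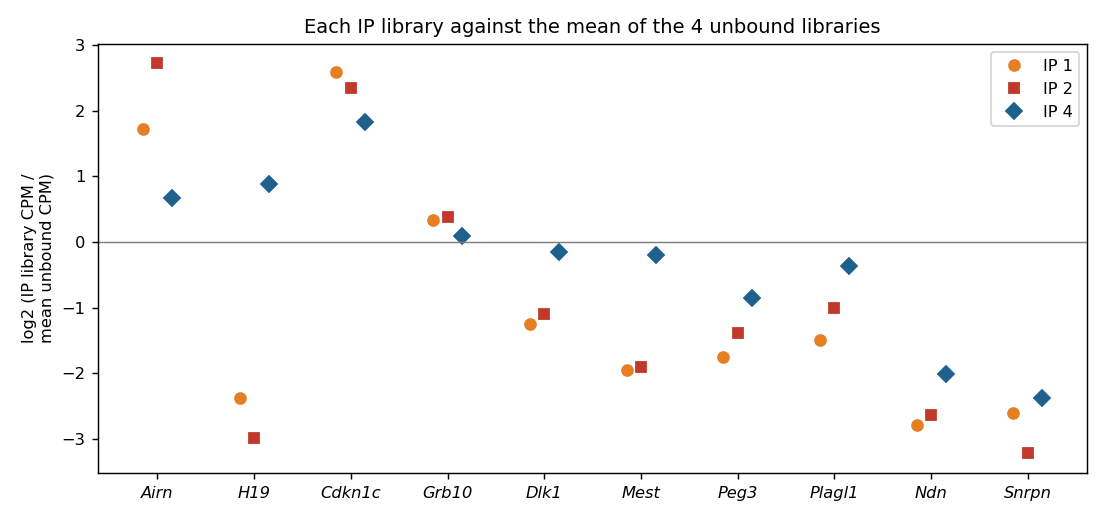
Each IP library's CPM over the mean of the 4 unbound libraries, as log2, for the 10 genes, with 0 marking the unbound mean. IP 4 is the nearest to 0 in each gene, and in Mest it stands at -0.19 against -1.95 and -1.90 for IP 1 and IP 2.

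Peg3 and Plagl1 encode zinc finger transcription factors of the paternal copy. Peg3 had 176, 228 and 331 CPM in IP 1, 2 and 4 and 952, 242, 456 and 731 CPM in unbound 1 to 4. Unbound 2 lay between IP 2 and IP 4, so the groups overlapped. The log2 fold change was -1.28 ± 0.44 (SE, adjusted p = 0.0377, 95% interval -2.24 to -0.32). The call was lost without IP 1 (adjusted p = 0.139), IP 2 (0.125), unbound 1 (0.094) or unbound 4 (0.0833). Within ACAGTG it was -1.56 (adjusted p = 0.136), and within GTGAAA, where IP 4 is the only IP library, it was -0.82. Peg3 lies on chromosome 7 from 6703892 to 6730431 (minus strand), and none of its exon bases are shared with another gene.

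Plagl1, also called Zac1, is known to regulate other imprinted genes. It measured 6.46, 9.03 and 14.1 CPM in IP 1, 2 and 4 and 15.6, 12.6, 19.8 and 24.4 CPM in unbound 1 to 4. IP 4 lay above unbound 2, and the other IP libraries lay below each unbound library. Plagl1 had a log2 fold change of -0.88 ± 0.35 (SE, adjusted p = 0.0658). It passed without IP 4 (-1.22, adjusted p = 0.0275) and without unbound 2 (-1.02, adjusted p = 0.0303). Unbound 2 was the lowest unbound library for Plagl1, so leaving it out also enlarges the fall by construction. Within ACAGTG the log2 fold change was -0.86, and within GTGAAA -0.63.

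Ndn and Snrpn lie in the cluster on chromosome 7 whose human counterpart is lost in Prader-Willi syndrome, and both are expressed from the paternal copy. Ndn encodes necdin, a MAGE family protein of postmitotic neurons that binds E2F1. Its level was 20.7, 23.1 and 35.5 CPM in IP 1, 2 and 4, and 133, 232, 106 and 103 CPM in unbound 1 to 4. Each IP library was below each unbound library, as in 22.7% of all genes tested. The means were 26.5 ± 7.91 (SD, n = 3) and 144 ± 60.4 (SD, n = 4), a log2 fold change of -2.44 ± 0.36 (SE, adjusted p = 0.000403). It was -3.06 within ACAGTG and -1.54 within GTGAAA. The sum of the pan-neuronal markers was also lower in each IP library than in each unbound library, and its part in the fall of Ndn and Snrpn was not tested.

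Snrpn encodes SmN, a core protein of spliceosomal particles that replaces SmB in brain. It had 2.83, 1.85 and 3.30 CPM in IP 1, 2 and 4, and 8.71, 31.7, 13.6 and 15 CPM in unbound 1 to 4. Here too the groups did not overlap, and unbound 2 was the highest library for both Ndn and Snrpn. The log2 fold change of Snrpn was -2.70 ± 0.47 (SE, adjusted p = 0.00132), -3.11 within ACAGTG and -2.09 within GTGAAA. Snrpn shares 34.1% of its exon bases with other gene models, among them Snurf, which is made from the same transcript. Reads that match more than 1 gene were assigned to none and made up 1.43% to 1.63% of reads in the IP files and 7.26% to 11.5% in the unbound files, so the Snrpn row may miss reads. The difference for Snurf itself was -0.995 ± 0.563 on the log2 scale (adjusted p = 0.184).

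**Figure D3:**
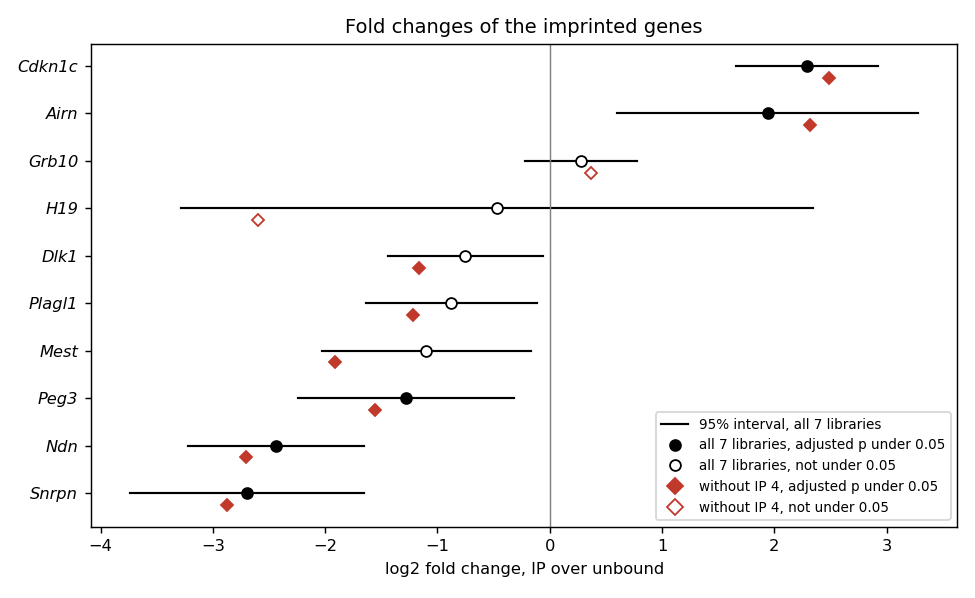
Log2 fold change of IP over unbound for the 10 genes, with circles for the fit of all 7 libraries and its 95% interval, and red diamonds for the fit without IP 4. Filled symbols passed an adjusted p of 0.05. Dlk1, Plagl1 and Mest are open in the fit of all 7 libraries and filled in the fit without IP 4. Fits with 1 library left out gave 3 to 8 calls among the 10 members, beside 24.7% to 44.2% of all genes. The fit without IP 4 gave the most member calls, beside 35.5% of all genes.

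The order of the levels was compared per kilobase of exon in GENCODE M21, since the annotation behind the counts is not given in the sources used here. In unbound RNA, Peg3 (44.7 ± 23.3 CPM per kilobase) and Ndn (38.9 ± 16.3) were the highest (SD, n = 4). Dlk1 (16.3 ± 3.62), Grb10 (11.1 ± 2.19), Mest (8.02 ± 1.39), Snrpn (7.98 ± 4.63), Cdkn1c (3.37 ± 0.784), Plagl1 (2.32 ± 0.66), Airn (0.448 ± 0.232) and H19 (0.225 ± 0.157) followed. Neighbours in this order overlapped between libraries except Ndn with Dlk1 and Plagl1 with Airn. In IP the order began with Peg3 (18.4 ± 5.93 CPM per kilobase, SD, n = 3), Cdkn1c (16.5 ± 4.19) and Grb10 (13.5 ± 1.39), and Ndn was the fifth (7.16 ± 2.14). There, neighbours overlapped except Snrpn (1.23 ± 0.344) with H19 (0.162 ± 0.219).

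The genes most like each member over the 7 libraries were picked by the highest Pearson correlation of log2 CPM among about 11360 candidates, as a description without a test. They were Rin2 for Cdkn1c (r = 0.997), Sh3gl3 for Ndn (0.997), Tmem35 for Snrpn (0.997), Fut9 for Plagl1 (0.996), Pcdhga3 for Dlk1 (0.993), Phyhip for Mest (0.992), Ttc39b for Peg3 (0.989), Copb2 for Grb10 (0.986), Cyb5r1 for Airn (0.978) and Pigo for H19 (0.969). The correlations rest on 7 points in 2 groups and share the depth and makeup of those libraries.

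Of 48 other genes listed for the members' domains, 41 had a row and 31 passed the filter. Of those 31, 6 rose (19.4%, background 20.5%), 9 fell (29%, background 18.9%) and 16 did not pass. No test compared a member with its neighbours. Some of these genes are imprinted in placenta or single tissues and not in brain.

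In the domain of Cdkn1c, Kcnq1, a potassium channel gene expressed from the maternal copy, rose from 0.255 ± 0.148 CPM in unbound (SD, n = 4) to 7.31 ± 1.85 in IP (SD, n = 3), a log2 fold change of 4.82 ± 0.57 (adjusted p = 0.000103). Kcnq1ot1, the paternal noncoding RNA that silences this domain in cis and runs antisense within Kcnq1, fell. It had 0.907, 1.12 and 2.73 CPM in IP 1, 2 and 4, and 16.2, 13.6, 16.4 and 12.5 CPM in unbound 1 to 4, a log2 fold change of -3.21 ± 0.44 (adjusted p = 0.000271). Within ACAGTG and GTGAAA, Kcnq1 stood at 4.45 and 5.33, and Kcnq1ot1 at -3.88 and -2.38. Without a known strand setting, reads of Kcnq1 and Kcnq1ot1 cannot be fully told apart. Slc22a18, an organic cation transporter (3.32 ± 1.18, adjusted p = 0.0454), Ascl2, a basic helix-loop-helix factor of the trophoblast (2.27 ± 0.72, adjusted p = 0.0275), and Cd81, a tetraspanin (0.62 ± 0.22, adjusted p = 0.0466), passed as higher. Slc22a18 lost its call without IP 1, 2 or 4 or unbound 1 or 4 (adjusted p up to 0.122). Ascl2 lost it without IP 1 or 2 or unbound 3 or 4 (up to 0.0952), and Cd81 lost it on leaving out each library except unbound 2 (up to 0.117). Nap1l4, Tssc4, Osbpl5 and Th did not pass.

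In the domain of H19, Igf2, the growth factor known for paternal expression in most tissues, rose while H19 did not pass. Its level was 176, 135 and 206 CPM in IP 1, 2 and 4, and 41.6, 70.4, 65.1 and 92.4 CPM in unbound 1 to 4. The groups did not overlap, and the log2 fold change was 1.36 ± 0.28 (SE, adjusted p = 0.00375), with 1.48 within ACAGTG and 1.41 within GTGAAA. Igf2 is also known as a product of meninges and choroid plexus. Of the 10 fibroblast and meningeal markers, Ptgds had 250, 237 and 1017 CPM in IP 1, 2 and 4 and 231 to 767 CPM in unbound, overlapping between the groups, and IP 4 was also the highest IP library for Igf2. The other 9 summed to 142, 137 and 163 CPM in IP 1, 2 and 4 and to 25.1 to 52.9 CPM in unbound, without overlap. This split of the list was made after its values were seen. In IP 1, Slc6a20a and Dcn gave 63.6 and 36.2 CPM of that sum. Col1a1, Slc13a4 and Pdgfra did not pass, and Pdgfra went the other way, with means of 7.05 CPM in IP and 15.1 in unbound. The part of these markers in the Igf2 result was not tested. In the domain of Airn, the receptor gene Igf2r, which binds IGF2 for breakdown and is known as biallelic in neurons, had 10.5 ± 1.64 CPM in IP (SD, n = 3) and 18.5 ± 4.87 in unbound (SD, n = 4). A log2 difference of -0.82 ± 0.30 passed narrowly (adjusted p = 0.0491), and over 19 alternatives it passed in 6, with adjusted p between 0.00707 and 0.255. Leaving out IP 1, 2 or 4, or unbound 1, 3 or 4, ended the call (adjusted p from 0.0726 to 0.181). The transporters Slc22a2 and Slc22a3 of this domain did not pass.

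In the domain of Dlk1, all 5 tested genes fell, beside 18.9% of all genes, and 5 of 5 had no overlap between the groups, beside 22.7% of all genes with IP lower. Meg3, the long noncoding RNA of the maternal copy, had 143, 201 and 426 CPM in IP 1, 2 and 4, and 1968, 985, 2039 and 1218 CPM in unbound 1 to 4, a log2 fold change of -2.60 ± 0.44 (adjusted p = 0.00111). Rian, a host of small nucleolar RNAs (-2.18 ± 0.33, adjusted p = 0.000481), and Mirg, a host of microRNAs (-2.75 ± 0.64, adjusted p = 0.00663), are made from the same strand of the maternal copy. Rtl1, a retrotransposon-derived gene of the paternal copy, had -1.74 ± 0.44 (adjusted p = 0.0102), and Begain, a gene of the postsynaptic density, -1.55 ± 0.25 (adjusted p = 0.000711). Rtl1 lost its call without IP 2 (adjusted p = 0.0527) and within ACAGTG (-2.10, adjusted p = 0.0585), and was -1.18 within GTGAAA. Within ACAGTG and GTGAAA, Meg3 stood at -3.10 and -1.92, Rian at -2.55 and -1.65, Mirg at -3.60 and -1.53, and Begain at -1.77 and -1.23.

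In the domain of Ndn and Snrpn, 1 of the 7 tested genes rose (14.3%, background 20.5%) and 1 fell (14.3%, background 18.9%). Snhg14, the long host transcript of small nucleolar RNAs downstream of Snrpn, fell from 70.8 ± 9.71 CPM (SD, n = 4) to 18.2 ± 8.53 (SD, n = 3), a log2 fold change of -1.96 ± 0.35 (adjusted p = 0.00154). Atp10a, a phospholipid flippase gene at the edge of the cluster, rose. It had 130, 151 and 75.8 CPM in IP 1, 2 and 4 and 9.26, 1.98, 4.18 and 4.45 CPM in unbound 1 to 4, a log2 fold change of 4.58 ± 0.48 (adjusted p = 4.27e-05). Within ACAGTG and GTGAAA, Atp10a stood at 4.64 and 4.15, and Snhg14 at -2.14 and -1.65. Ube3a, a ubiquitin ligase gene expressed from the maternal copy in neurons, had -0.24 ± 0.23 (adjusted p = 0.45). Magel2, Mkrn3 and Peg12, paternal genes near Ndn, had log2 fold changes of -0.99, -0.35 and 2.98 and did not pass.

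In the domain of Peg3, Usp29, a paternal ubiquitin protease gene that starts beside Peg3 on the other strand, fell from 130 ± 33.3 CPM (SD, n = 4) to 38.2 ± 8.05 (SD, n = 3). The fitted log2 difference was -1.76 ± 0.28 (adjusted p = 0.000648), and its groups did not overlap, unlike those of Peg3. It was -1.93 within ACAGTG and -1.46 within GTGAAA. Zim1, a maternal zinc finger gene, had 0.65 ± 0.37 (adjusted p = 0.181). Beside Grb10, Ddc (0.63 ± 0.23, adjusted p = 0.0516) and the actin nucleator gene Cobl (-0.78 ± 0.44, adjusted p = 0.188) did not pass. Beside Mest, Copg2, a coatomer subunit gene, had -0.57 ± 0.27 (adjusted p = 0.113), and the carboxypeptidase gene Cpa4 -0.98 ± 0.84 (adjusted p = 0.379).

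**Figure D4:**
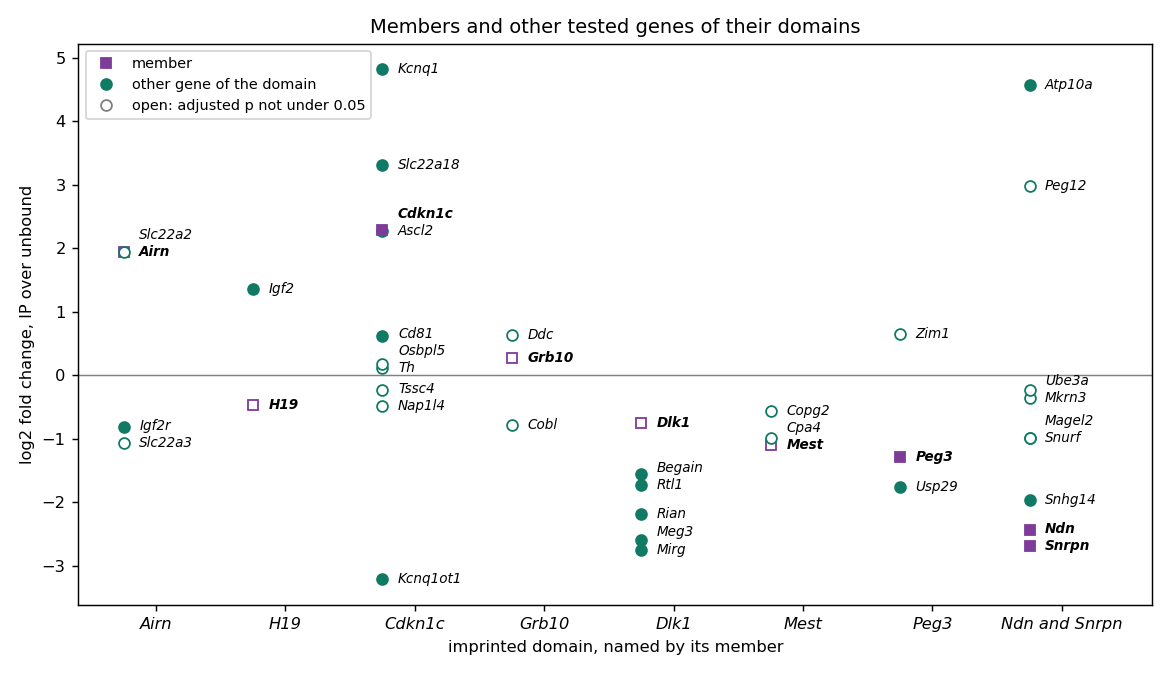
Log2 fold change of IP over unbound for members (squares) and the other tested genes of their domains (circles), filled where the adjusted p was under 0.05. Plagl1 is not drawn, as no other gene of its domain was tested. Kcnq1 at 4.82 and Kcnq1ot1 at -3.21 are the ends of the domain of Cdkn1c, and the 5 tested genes beside Dlk1 lie between -1.55 and -2.75.

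Further genes listed as imprinted, outside these domains, gave 6 higher and 15 lower of 32 tested. They were listed whatever the tissue of imprinting, and these counts do not show whether any of them is imprinted in midbrain. Together with the domain genes, 12 of 63 were higher (19%, background 20.5%) and 24 were lower (38.1%, background 18.9%), with a median of -0.59 against -0.10 over all genes. Without IP 2, 15 of the other imprinted genes were lower, and the share lower over all genes was 9.51%. The lowest were the cadherin gene Cdh15 (-2.69 ± 0.80, adjusted p = 0.021), Nap1l5, an intronless relative of the nucleosome assembly proteins (-2.20 ± 0.28, adjusted p = 0.000142), Impact, a regulator of the kinase GCN2 (-1.99 ± 0.35, adjusted p = 0.00142), and Zdbf2, a zinc finger gene (-1.89 ± 0.34, adjusted p = 0.00166). The 4 lowest lay between -2.96 and -1.91 within ACAGTG and between -2.89 and -1.26 within GTGAAA, and Zdbf2 did not pass within ACAGTG (adjusted p = 0.054). Cdh15 lost its call without IP 1 (adjusted p = 0.0698), IP 4 (0.0623) or unbound 1 (0.0541). The highest were the chloride channel gene Ano1 (4.34 ± 0.45, adjusted p = 3.88e-05), the proteoglycan gene Dcn (2.61 ± 0.36, adjusted p = 0.000268), and the paraoxonase genes Pon3 (2.37 ± 0.44, adjusted p = 0.00186) and Pon2 (2.23 ± 0.26, adjusted p = 9.99e-05). Within ACAGTG these 4 lay between 2.46 and 4.15, and within GTGAAA between 1.91 and 4.56. Dcn is also 1 of the 10 fibroblast and meningeal markers, of which 6 were higher.

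Genes that write, protect or erase imprints gave 4 higher and 3 lower of 22 tested, 31.8% called beside the background of 39.4%. The lowest of these was Zfp57, whose product protects methylated imprints in the embryo. It fell from 8.55 ± 4.68 CPM (SD, n = 4) to 1.60 ± 0.652 (SD, n = 3), a log2 fold change of -2.41 ± 0.50 (adjusted p = 0.00365). Ezh2, the methyltransferase of Polycomb complex PRC2, had -1.28 ± 0.30 (adjusted p = 0.00647). Among those that passed, the highest were the DNA demethylating enzymes Tet2 (1.11 ± 0.32, adjusted p = 0.0185) and Tet3 (0.94 ± 0.25, adjusted p = 0.0115), and neither passed without IP 2, where adjusted p was 0.112 and 0.0702. Within ACAGTG, Tet2 stood at 1.48 (adjusted p = 0.0622) and Tet3 at 1.03 (0.106), and within GTGAAA they stood at 0.34 and 0.81. Tet2 also missed the threshold with the replicate number as a block (0.0511). Within ACAGTG and GTGAAA, Zfp57 stood at -2.63 and -2.34, and Ezh2 at -1.28 and -1.19, with Ezh2 not passing within ACAGTG (0.0917). The maintenance methyltransferase Dnmt1 and the ZFP57 partner Trim28 did not pass.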

How the data were processed

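RNA-seq libraries of immunopurified (3) and unbound (4) midbrain RNA were compared. Each file the authors deposited lists raw counts of reads by gene symbol. Per the submitters' processing notes, STAR 2.0.0e and HTSeq were used, with mm10. The sources used here do not give the annotation, strand setting or filters. The 6 rows that name no gene were left out, among them reads outside genes (11.3% to 18.6% of reads), in more than 1 gene (1.43% to 11.5%) and aligned to more than 1 place (17.6% to 39.6%).

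Counts were fitted in R 4.3.3 with edgeR 4.0.16 (filterByExpr, TMM scaling, robust quasi-likelihood test, 2-sided, Benjamini-Hochberg over all 17654 genes, threshold 0.05). CPM, fold changes, their standard errors and 95% intervals were computed here from the deposited counts. The floor of 3 counts covers counting error alone, because PCR copies of a molecule are counted as separate reads. GENCODE M21 (GRCm38, the build named mm10) held the symbols of the 10 members and of 88.4% of tested genes. Correlations used log2 of CPM plus 0.1.

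The members and gene lists were chosen with earlier results of these data known. Named were all 10 members, every tested gene of their domains, the 4 highest and 4 lowest called further imprinted genes, the 2 highest and 2 lowest called imprint genes, and per member the gene most alike. Dnmt1 and Trim28 were named outside this rule, after their values were seen.

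As alternatives, DESeq2 1.42.0 and voom in limma 3.58.1 replaced edgeR. Scaling was by RLE or by library size alone, the filter was dropped or set at 5 CPM in 3 libraries, replicate numbers entered as a block, and the index sequence entered as a covariate or split the libraries (the lone IP library of GTGAAA was assumed to vary like the unbound ones). Left out were the 10 most abundant genes, each library in turn, or IP 4 with unbound 2. IP and unbound libraries shared no sequencing lane, so lane and group cannot be told apart. No 2 libraries of a group agreed within sampling noise (chi-square per degree of freedom of at least 77.7). The value was 79.0 for IP 1 with IP 2, and 240 and 239 for IP 4 with IP 1 and with IP 2. Among the unbound libraries it ran from 77.7 (unbound 3 with 4) to 1206 (unbound 1 with 2).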

Additional observations from a re-analysis of the deposited data

Results flagged for a closer look

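In 41 genes of the members and their domains, the 4 unbound libraries were searched for a library far from the other 3, a check that flags about 1 in 20 groups by chance, and 3 genes were marked, none of them a member. Mirg had 10.8 CPM in unbound 2, against 3.34 to 3.93 CPM in the other unbound libraries. Slc22a2 had 0.30 CPM (17 counts) in unbound 4 and 0 counts in the other unbound libraries. Peg12 had 0.285 CPM (15 counts) in unbound 3 and at most 1 count in the others.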

How the results depend on the processing

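Cdkn1c, Ndn and Snrpn kept their direction and their call in all 19 alternatives. Airn kept its direction in the 18 alternatives that tested it and its call in 11, and Peg3 its direction in 19 and its call in 14. Dlk1, Plagl1 and Mest passed as lower in 5, 6 and 7 of 19. The 10 members gave 8 calls (6 lower) with limma voom, where 42.2% of all genes were called (19.4% lower). They gave 8 (6 lower) without IP 4 and unbound 2 together, where 44.7% were (21.9% lower). Unbound 2 was the lowest unbound library for Peg3, Dlk1, Plagl1 and Mest, and the highest for Ndn and Snrpn. Leaving it out, like IP 4, enlarges the falls of Peg3, Dlk1, Plagl1 and Mest by construction. The members gave 5 lower with DESeq2 (all genes 20.6%), and 6 lower and 1 higher with the index sequence as covariate (20.7% and 21.4%). They gave 1 higher with the filter of 5 CPM (all genes 24.2%, and Airn was not tested there) and 1 higher within ACAGTG (12.4%). Leaving out 1 library gave 3 to 8 calls among the members (1 to 2 higher, 2 to 6 lower) and 15 to 27 lower among the other imprinted genes. Over all genes it gave 4547 to 7682 calls (2796 to 4050 higher, 1751 to 3632 lower). As shares of the genes tested, these were 24.7% to 44.2% (15.2% to 23.3% higher, 9.51% to 20.9% lower). Within ACAGTG, 3840 genes (21.7%) were called, 2190 higher and 1650 lower. The causes of these changes were not tested.

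Directions turned in genes that were not called. H19 was 0.31 within GTGAAA, 0.00095 without IP 1 and 0.043 without IP 2 against -2.60 without IP 4, and it could not be tested within ACAGTG at its low counts. Grb10, Zim1 and Osbpl5 were -0.079, -0.21 and -0.37 within GTGAAA, where Cobl was 0.025 and Peg12 -2.68. With 1 library left out, Osbpl5 ranged from -0.028 (without IP 1) to 0.38, Th from -0.0021 (without unbound 4) to 0.23, Tssc4 from -0.43 to 0.0027, and Mkrn3 from -1.12 to 0.55. Tssc4 was 0.0027 without unbound 2 and 0.16 without IP 4 and unbound 2 together. Mkrn3 was 0.23 without IP 4, 0.55 without unbound 2 and 1.14 without both.

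With the replicate number as a block, 5772 genes (32.7% of those tested) and 6 of the 10 members passed, Mest among them (-1.35, adjusted p = 0.0112). The labels do not say that a number marks shared animals, and deviations of same-numbered libraries correlated at -0.03, 0.05 and 0.19 for replicates 1, 2 and 4, while IP 1 correlated best with unbound 2. Scaling by library size alone moved the median of all genes from -0.10 to 0.01.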
